A study of Mus musculus with 8 samples.

Results

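Microtubules are built from tubulin, and a set of proteins binds them and tunes how they grow, bundle and turn over. The genes described here encode both kinds of protein. The rule that picks them names gene symbols and no measured value, and takes 36 of the 29092 genes of an mRNA-seq table of the fetal mouse bowel. The set holds 7 alpha-tubulin genes, 8 beta-tubulin genes and 2 gamma-tubulin genes, followed by 7 genes of microtubule-associated proteins (MAPs) that lie along the microtubule lattice, 3 doublecortin genes, 4 stathmin genes and 5 genes of the collapsin response mediator protein (CRMP) family.

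RNA came from the bowel, stomach to anus, of mouse embryos at E13.5 that carried an *Ednrb-EGFP* reporter, with heterozygous reporter mice and wild-type C57BL/6J mice as parents and a genotype labelled wild-type. Dissociated cells were sorted by green fluorescence into GFP+ enteric neural crest-derived cells (ENCDCs), the precursors, young neurons and glia of the enteric nervous system, and GFP- gut cells, which are all other cells of the same bowels. Both populations thus carried the same reporter, were the same age and received no treatment. Each population gave 4 libraries from 750 pg of RNA each, and RNA samples had been pooled where needed, so the spread between libraries need not be the spread between embryos.

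Alpha- and beta-tubulin pair into the dimer that forms the microtubule wall, and gamma-tubulin seeds new microtubules. Mammals carry several genes for each tubulin, and young neurons are known for a particular choice among them, with class III beta-tubulin (*Tubb3*) widely used as a neuronal marker. Lattice MAPs such as tau (*Mapt*), MAP2 and MAP1B stabilize or space microtubules in axons and dendrites, doublecortins stiffen them in migrating neurons, stathmins hold free dimers, and CRMPs carry dimers to growing axons and relay guidance signals.

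Depth was nearly equal in the 8 libraries, which the authors had sampled down before deposit, and ran from 13250893 to 13267220 counts. All 9 ENCDC marker genes and all 10 young neuron marker genes were higher in ENCDCs, and all 8 smooth muscle, 6 mesenchyme, 6 epithelium, 4 macrophage and 4 erythroid markers were lower, as were 3 of 4 endothelial and 2 of 5 megakaryocyte and platelet markers. Of 10 genes of cycling cells, 3 were higher in ENCDCs and 7 were not called. ENCDC replicate 3 stood apart from the other ENCDC libraries. Its summed count of mesenchyme markers was 19568, against 2730 to 7978 in the other 3, its smooth muscle sum was 10016 against 1507 to 3433, and its young neuron sum was 22110 against 27792 to 31325.

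The end of a tubulin coding sequence encodes the acidic tail that MAPs and modifying enzymes touch. The last 75 coding bases, stop codon included, are shown for 6 beta-tubulin genes, among them the neuronal gene *Tubb3* and the close pair *Tubb2a* and *Tubb2b*. Sequences were read from GENCODE M21 transcripts (mm10), each within a single exon, and capitals mark bases with no match in *Tubb5* when whole coding sequences were aligned. The ends lie at chr17:35834982-35835056 on the minus strand for *Tubb5*, at chr8:123421608-123421682 on the plus strand for *Tubb3*, at chr13:34074468-34074542 and chr13:34127471-34127545 on the minus strand for *Tubb2a* and *Tubb2b*, at chr17:57080690-57080764 on the minus strand for *Tubb4a*, and at chr2:25222308-25222382 on the minus strand for *Tubb4b*.
Tubb5: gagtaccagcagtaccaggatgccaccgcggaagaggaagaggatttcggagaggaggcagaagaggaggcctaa
Tubb3: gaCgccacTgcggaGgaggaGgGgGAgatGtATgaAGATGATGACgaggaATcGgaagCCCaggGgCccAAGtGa
Tubb2a: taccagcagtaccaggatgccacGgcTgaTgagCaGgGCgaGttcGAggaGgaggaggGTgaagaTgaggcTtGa
Tubb2b: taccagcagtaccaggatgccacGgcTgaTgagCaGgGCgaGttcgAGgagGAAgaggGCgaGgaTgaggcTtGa
Tubb4a: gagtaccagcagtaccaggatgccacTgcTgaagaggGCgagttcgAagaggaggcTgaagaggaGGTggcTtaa
Tubb4b: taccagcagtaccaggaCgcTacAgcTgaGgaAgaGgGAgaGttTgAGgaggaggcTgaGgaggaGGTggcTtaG

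*Tubb3* had 32 bases of the 75 in capitals, against 10 in *Tubb4a*, 16 in *Tubb2a*, 19 in *Tubb2b* and 20 in *Tubb4b*. The coding sequence of *Tubb3* is longer than that of *Tubb5*, at 1353 and 1335 bases. Its last 75 bases thus start further along, and bases set against a gap are always capitals, so these numbers do not compare like stretches. The marks depend on where the alignment put gaps, so some bases that *Tubb2a* and *Tubb2b* share are capitals in only one of them. Over whole coding sequences *Tubb3* was 81.4% identical to *Tubb5* and 85.9% to *Tubb6*, while *Tubb2a* and *Tubb2b* were 96.5% identical. *Tubb6* and *Tubb1*, whose ends are not shown, were further from *Tubb5* than *Tubb3* was, at 80.2% and 73.4%. The likeness bears on the counts, since a read can fit more than one gene. In the longest transcript of *Tubb3* no 50-base window occurred in another annotated gene, whereas this was so for 49.6% of windows in *Tubb2a*, 39.3% in *Tubb2b* and 55.5% in *Tubb4b*, whose main partner was a pseudogene. Counts of these 3 genes are therefore less certain than that of *Tubb3*.

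The leading alpha-tubulin genes are closer to each other than most beta-tubulin genes. *Tuba1a* and *Tuba1b* were 98.3% identical over the coding sequence. Of the 50-base windows of the longest transcript, 75.5% in *Tuba1a*, 83.1% in *Tuba1b* and 61.0% in *Tuba1c* occurred in another gene. The split of reads among these 3 genes thus rests on the remaining windows and on how the minimum counts treated reads that fit several genes, for which the exact rule is not given in the sources used here.

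ENCDCs carried far more mRNA of the 36 genes than gut cells. Together the genes took 1.36% to 1.48% of all counts in the ENCDC libraries and 0.344% to 0.370% in the gut libraries. In bulk RNA, fewer cells of a type and less RNA per cell cannot be told apart. Of the 36 genes 35 had enough counts to be tested with edgeR's quasi-likelihood test and Benjamini-Hochberg adjustment, and at an adjusted p under 0.05 26 were higher in ENCDCs, 3 were lower and 6 were not called. Among all 18866 genes tested, 17.0% were called higher and 20.9% lower. The median log2 fold change, ENCDC over gut, was 1.62 for the 35 genes and -0.04 for all genes. In 26 genes every ENCDC count lay above every gut count and in 1 gene the reverse held, where 15.0% and 22.3% of all tested genes did so.

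The measured differences were larger among the binding proteins than among the tubulins. Of 19 genes of lattice MAPs, doublecortins, stathmins and CRMPs, 17 were higher in ENCDCs and 2 were not called, with a median log2 fold change of 3.27. Of 16 tubulin genes tested, 9 were higher, 3 were lower and 4 were not called, with a median of 0.47. All 4 stathmin, 3 doublecortin and 5 CRMP genes were higher, whereas the alpha-tubulin genes were divided, with 2 higher and 2 lower of 6 tested. Of those lower, *Tuba3a* had enough counts to be tested only in gut cells, and its call was lost without any single ENCDC library. That leaves *Tuba4a* as the well counted alpha-tubulin gene that was lower. The tubulin median also takes in *Tuba3a*, *Tuba8* and *Tubb1*, whose ENCDC counts were at or near 0. The difference between the binding proteins and the tubulins was not tested.

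**Figure D1:**
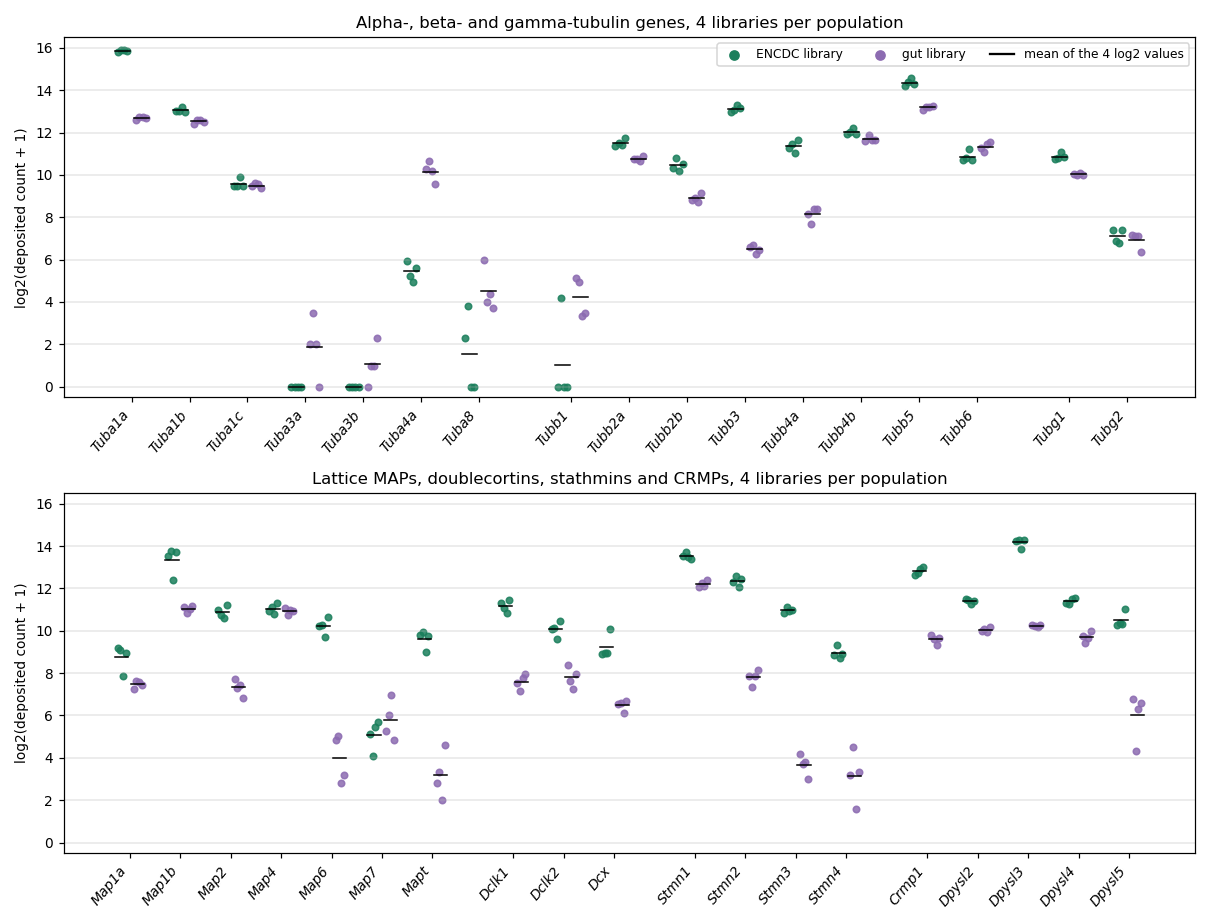
Deposited counts of the 36 genes on a log2(count + 1) axis, grouped by family, with a point for each of the 4 ENCDC and 4 gut libraries and a bar at the mean of the 4 log2 values. *Tuba1a* has the highest counts in ENCDCs (56704 to 60433), *Tubb3*, *Mapt*, *Map6*, *Stmn3* and *Stmn4* show wide gaps between the populations, and *Tuba4a* is the gene whose gut counts all lie above its ENCDC counts.

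**Figure D2:**
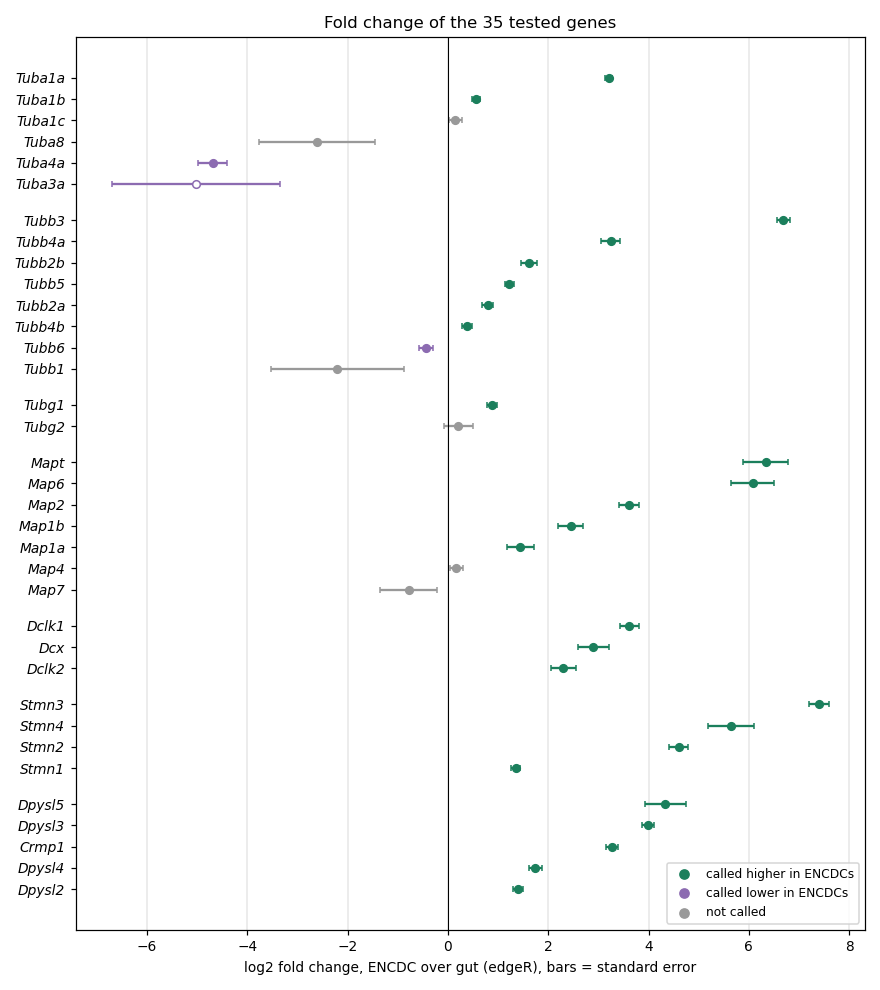
Log2 fold change of each of the 35 tested genes, ENCDC over gut, with the standard error as bars, grouped by family and colored by call at an adjusted p under 0.05. The values run from -5.02 for *Tuba3a*, drawn open because its ENCDC counts were all 0 and the fitted value is not a measured size, to 7.40 for *Stmn3*.

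*Tuba1a* encodes the main alpha-tubulin of young neurons and had the highest level per kb of exon of the 36 genes in both populations. Its counts were 56704, 60433, 60421 and 58806 in the ENCDC libraries and 6241, 6889, 6726 and 6628 in the gut libraries. The populations were far apart relative to the spread among libraries, and the log2 fold change was 3.21 (SE 0.064, edgeR adjusted p = 2.13e-10). *Tuba1b*, a widely expressed alpha-tubulin gene, had 8180, 8345, 9357 and 7892 counts in ENCDCs and 5396, 6228, 6176 and 5776 in gut cells. It differed by much less than *Tuba1a* (log2 fold change 0.57, SE 0.082, edgeR adjusted p = 2.50e-04), although its groups did not overlap. *Tuba1c* had 706, 709, 968 and 722 counts in ENCDCs and 711, 773, 750 and 661 in gut cells. These ranges overlapped and no difference was called (log2 fold change 0.15, SE 0.13, edgeR adjusted p = 0.419). The highest of its 8 values was in ENCDC replicate 3, and without that library the log2 fold change was 0.03.

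*Tuba4a*, which encodes the alpha-tubulin known to be made without a C-terminal tyrosine, ran the other way. Its counts were 61, 37, 30 and 48 in ENCDCs and 1231, 1588, 1157 and 748 in gut cells. Every gut value was above every ENCDC value, and the log2 fold change was -4.69 (SE 0.29, edgeR adjusted p = 3.95e-07). *Tuba4a* shares 37.3% of its exon bases with *Stk16*, a kinase gene on the opposite strand, and the library kits do not mark strand. *Stk16* itself had 1108 to 1323 counts in ENCDCs and 1098 to 1256 in gut cells, so its own counts did not follow those of *Tuba4a*. Erythroid markers summed to 47151 to 71495 counts in gut libraries and 365 to 958 in ENCDC libraries, and the 5 megakaryocyte and platelet markers to 371 to 649 and 36 to 197. Their part in the *Tuba4a* difference was not tested.

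The other 3 alpha-tubulin genes were scarcely counted. *Tuba8*, an alpha-tubulin gene known from muscle and testis, had 4, 13, 0 and 0 counts in ENCDCs and 63, 15, 20 and 12 in gut cells. The ranges overlapped and the difference was not called (log2 fold change -2.60, SE 1.15, edgeR adjusted p = 0.0996). *Tuba3a* was at 0 in all ENCDC libraries and at 3, 10, 3 and 0 in gut cells. Like *Tuba8*, it passed the count filter through its gut counts alone. With 3 counts over the group as the floor, and its gut counts taken as exact, it was at least 5.33-fold lower in ENCDCs. Its call just passed the threshold (edgeR adjusted p = 0.0462) and was lost when any 1 ENCDC library was left out, with adjusted p values of 0.0558 to 0.0717. *Tuba3b*, whose coding sequence is 97.0% identical to that of *Tuba3a*, had 0 counts in all ENCDC libraries and 0, 1, 1 and 4 in gut cells, too few to be tested.

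Among the beta-tubulin genes, *Tubb3*, the class III gene that antibodies to neurons commonly target, separated the populations by the widest margin of any tubulin gene that was higher in ENCDCs. Its counts were 8007, 8648, 10145 and 9106 in ENCDCs and 96, 101, 76 and 88 in gut cells. The lowest ENCDC library thus held many times the highest gut library, and the log2 fold change was 6.68 (SE 0.13, edgeR adjusted p = 2.13e-10). The value was 6.63 without ENCDC replicate 3. *Tubb4a*, a beta-tubulin gene of the nervous system, had 2441, 2849, 2080 and 3190 counts in ENCDCs and 284, 202, 335 and 334 in gut cells. The groups did not overlap (log2 fold change 3.24, SE 0.19, edgeR adjusted p = 3.48e-07).

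*Tubb2b*, a beta-tubulin gene of migrating neurons, had 1266, 1777, 1159 and 1466 counts in ENCDCs and 443, 474, 418 and 567 in gut cells. *Tubb2a*, its close copy on the same chromosome, had 2632, 2933, 2717 and 3382 in ENCDCs and 1706, 1722, 1621 and 1911 in gut cells. Both were higher in ENCDCs with no overlap, by 1.62 for *Tubb2b* (SE 0.16, edgeR adjusted p = 1.56e-05) and by 0.79 for *Tubb2a* (SE 0.11, edgeR adjusted p = 1.61e-04) on the log2 scale. Because the genes share sequence, the size of each difference is uncertain. *Tubb5*, the most abundant beta-tubulin gene here and one used by most dividing cells, had 18784, 21641, 24359 and 19782 counts in ENCDCs and 8510, 9316, 9575 and 9918 in gut cells. Its groups lay well apart (log2 fold change 1.23, SE 0.090, edgeR adjusted p = 1.53e-06).

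*Tubb4b*, a widely expressed gene, had 3922, 4149, 4764 and 3891 counts in ENCDCs and 3116, 3770, 3256 and 3174 in gut cells. The gap between the groups was narrow, and the log2 fold change was 0.38 (SE 0.096, edgeR adjusted p = 9.59e-03). *Tubb6*, a broadly expressed class V gene, was the beta-tubulin gene called lower in ENCDCs, with 1672, 1773, 2364 and 1668 counts against 2446, 2199, 2792 and 2970 in gut cells. Here the groups overlapped, because ENCDC replicate 3 lay above gut replicate 2. The log2 fold change was -0.43 (SE 0.14, edgeR adjusted p = 0.0279), and -0.55 without ENCDC replicate 3 (edgeR adjusted p = 0.00235). Leaving out any one of ENCDC replicates 1, 2 and 4 or gut replicates 3 and 4 instead ended the call, with adjusted p values of 0.0662 to 0.0842. *Tubb1*, the beta-tubulin gene of platelets and their precursors, had 0, 17, 0 and 0 counts in ENCDCs and 34, 30, 9 and 10 in gut cells. A single ENCDC library made the ranges overlap and the difference was not called (log2 fold change -2.20, SE 1.33, edgeR adjusted p = 0.225). *Tubb1* had enough counts to be tested only in gut cells. Without that library the other 3 were all at 0 and *Tubb1* was called lower in ENCDCs (edgeR adjusted p = 0.00438). Since that call follows from leaving out the only ENCDC library with any count, it adds no support for a difference.

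The make-up of the tubulin pool also differed between the populations in the shares that genes held. To compare genes, each count was divided by the exon length of its gene in kb and given as a share of its family's sum in the same library. In ENCDCs *Tuba1a* made up 87.1% ± 0.755 (SD, n = 4) of the alpha-tubulin sum and *Tuba1b* 12.0% ± 0.648. In gut cells the 2 genes were nearly even, at 49.2% ± 1.08 and 42.1% ± 0.805 (SD, n = 4). The ratio of *Tuba1a* to *Tuba1b* per kb was 7.30 ± 0.449 in ENCDCs and 1.17 ± 0.0337 in gut cells. *Tuba4a* supplied 4.25% ± 1.12 of the alpha-tubulin sum in gut cells and 0.0319% ± 0.0109 in ENCDCs, and *Tuba1c* 4.24% ± 0.187 and 0.900% ± 0.126.

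Among beta-tubulins, *Tubb3* made up 27.4% ± 0.977 (SD, n = 4) of the sum per kb in ENCDCs and 0.698% ± 0.102 in gut cells. *Tubb5* was the leading gene in both, with 36.2% ± 1.82 in ENCDCs and 40.3% ± 0.824 in gut cells, a difference whose groups did not overlap per kb of exon but did overlap when shares of raw counts or lengths of the longest transcript were used. *Tubb6* held 4.36% ± 0.510 in ENCDCs and 15.4% ± 1.66 in gut cells. *Tubb4b* held 11.4% ± 0.625 and 23.0% ± 2.22, so it took a smaller share of the pool in ENCDCs although its count was higher there. The same was true of *Tubb2a*, at 10.4% ± 1.29 and 15.6% ± 0.839, while the share of *Tubb4a* was larger in ENCDCs, at 6.80% ± 1.38 and 1.86% ± 0.382. The shares of *Tubb2b* overlapped.

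**Figure D3:**
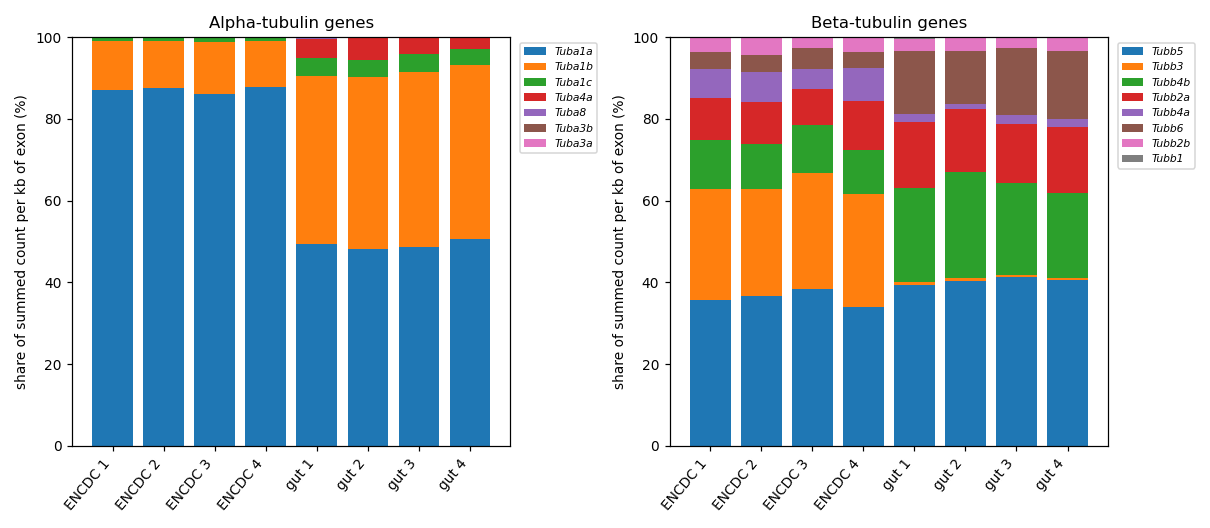
Share of each gene in the summed count per kb of exon of the alpha-tubulin genes (left) and the beta-tubulin genes (right), in percent, for each of the 4 ENCDC and 4 gut libraries. *Tuba1a* fills 86.1% to 87.8% of the alpha-tubulin bar in ENCDCs and 48.2% to 50.7% in gut cells, and *Tubb3* fills 26.1% to 28.4% of the beta-tubulin bar in ENCDCs and 0.584% to 0.789% in gut cells.

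The whole alpha-tubulin sum was 37630 ± 1237 counts per kb (SD, n = 4) in ENCDCs and 7467 ± 409.6 in gut cells, a ratio of 5.04. The beta-tubulin sum was 17546 ± 1375 and 6947 ± 347, a ratio of 2.53. Alpha- and beta-tubulin sums were thus near each other in gut cells and apart in ENCDCs, where *Tuba1a* alone reached 32774 ± 979 counts per kb. Since many reads of *Tuba1a* also fit *Tuba1b* and *Tuba1c*, the level of any of the 3 is uncertain. Whether reads that fit several genes are missing from the sums as well is not known. Exon lengths were not reduced by shared windows, so levels and shares may be biased between genes that share much sequence and genes that share little.

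*Tubg1*, which encodes the main gamma-tubulin at centrosomes, had 1720, 1791, 2150 and 1821 counts in ENCDCs and 1046, 1015, 1094 and 1024 in gut cells. The groups did not overlap (log2 fold change 0.89, SE 0.099, edgeR adjusted p = 3.63e-05). *Tubg2*, its close relative, had 167, 118, 108 and 165 counts in ENCDCs and 144, 138, 138 and 80 in gut cells. Its groups overlapped and no difference was called (log2 fold change 0.21, SE 0.29, edgeR adjusted p = 0.605). The 2 genes are 93.3% identical in their coding sequence, but 14.1% of the 50-base windows of *Tubg1* occurred in another gene.

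Among lattice MAPs, *Mapt* and *Map6*, the genes of tau and of the microtubule stabilizer also called STOP, showed the largest differences of this family. *Mapt* (chr11:104231390-104332090, plus strand, mm10) had 881, 988, 508 and 861 counts in ENCDCs and 6, 9, 3 and 23 in gut cells. *Map6* (chr7:99267447-99337137, plus strand) had 1206, 1239, 821 and 1593 counts in ENCDCs and 28, 32, 6 and 8 in gut cells. Neither gene had a gut library near an ENCDC library, and the log2 fold changes were 6.34 for *Mapt* (SE 0.45, edgeR adjusted p = 1.22e-06) and 6.08 for *Map6* (SE 0.43, edgeR adjusted p = 1.10e-06). With gut counts so low, single gut libraries weighed on the size, and *Mapt* stood at 7.10 without gut replicate 4.

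*Map2*, whose protein is typical of dendrites, had 2024, 1729, 1572 and 2361 counts in ENCDCs and 209, 155, 174 and 114 in gut cells. It was higher in ENCDCs with no overlap (log2 fold change 3.61, SE 0.20, edgeR adjusted p = 2.20e-07). *Map1b*, the gene of a MAP that appears early in growing axons, was the most counted of the family, with 11919, 14084, 5405 and 13320 counts in ENCDCs and 2237, 1847, 2115 and 2284 in gut cells. *Map1a*, whose protein is more usual in mature neurons, had 581, 543, 235 and 500 counts in ENCDCs and 150, 195, 190 and 174 in gut cells. In both genes ENCDC replicate 3 was far below the other ENCDC libraries but still above every gut library. The log2 fold changes were 2.45 for *Map1b* (SE 0.25, edgeR adjusted p = 2.05e-05) and 1.44 for *Map1a* (SE 0.27, edgeR adjusted p = 1.55e-03). Without ENCDC replicate 3 they were 2.68 and 1.67.

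The 2 lattice MAPs that are not tied to neurons behaved otherwise. *Map4*, the common MAP of non-neuronal cells, had 1958, 2244, 1752 and 2535 counts in ENCDCs and 2119, 1724, 2048 and 1961 in gut cells. *Map7*, also called ensconsin and known from epithelium, had 34, 16, 43 and 51 counts in ENCDCs and 38, 65, 126 and 28 in gut cells. The groups overlapped in both genes, and neither was called, with log2 fold changes of 0.16 (SE 0.13, edgeR adjusted p = 0.352) and -0.78 (SE 0.56, edgeR adjusted p = 0.305).

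All 3 doublecortin genes were higher in ENCDCs. *Dcx* (chrX:143855842-143933311, minus strand), whose protein marks migrating and young neurons, had 482, 491, 487 and 1089 counts in ENCDCs and 91, 94, 69 and 101 in gut cells. The groups did not overlap, and ENCDC replicate 4 held 224% of the mean of the other 3. The log2 fold change was 2.90 (SE 0.31, edgeR adjusted p = 2.65e-05), and 2.50 without ENCDC replicate 4. *Dclk1*, which joins a doublecortin domain to a kinase domain, had 2542, 2167, 1836 and 2764 counts in ENCDCs and 185, 140, 214 and 244 in gut cells. *Dclk2*, a kinase of the same build, had 1092, 1104, 776 and 1402 counts in ENCDCs and 330, 197, 149 and 245 in gut cells. Both were higher in every ENCDC library than in any gut library, with log2 fold changes of 3.62 (SE 0.20, edgeR adjusted p = 1.80e-07) and 2.30 (SE 0.25, edgeR adjusted p = 3.38e-05).

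The 4 stathmin genes fell into a gene abundant in both populations and 3 genes with far fewer counts in gut cells than in ENCDCs. *Stmn1*, found in dividing cells and young neurons alike, had 11625, 13380, 11290 and 10665 counts in ENCDCs and 4352, 4859, 4494 and 5361 in gut cells. Its groups were apart by a modest factor (log2 fold change 1.35, SE 0.097, edgeR adjusted p = 1.32e-06). A pseudogene shares most of the 36.5% of its 50-base windows that occur elsewhere. *Stmn3*, a neuronal stathmin gene, had 1850, 2256, 1982 and 2009 counts in ENCDCs and 17, 12, 13 and 7 in gut cells. That was the largest log2 fold change of the 35 genes, 7.40 (SE 0.20, edgeR adjusted p = 1.44e-09).

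*Stmn2* (chr3:8509360-8561606, plus strand), also called SCG10 and found in growth cones, had 5058, 6191, 4344 and 5640 counts in ENCDCs and 230, 163, 235 and 278 in gut cells. *Stmn4*, a further neuronal stathmin gene, had 455, 644, 418 and 483 counts in ENCDCs and 8, 22, 2 and 9 in gut cells. No gut library came near an ENCDC library in either gene, and the log2 fold changes were 4.60 (SE 0.18, edgeR adjusted p = 1.70e-08) and 5.64 (SE 0.46, edgeR adjusted p = 3.38e-06). The value of *Stmn4* was 6.30 without gut replicate 2. Per kb of exon, *Stmn2* stood at 0.155 ± 0.0206 of *Stmn1* in ENCDCs and at 0.0163 ± 0.00323 in gut cells (SD, n = 4).

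All 5 CRMP genes were higher in ENCDCs. *Dpysl3*, also called CRMP4 and found in growing axons, was the most counted CRMP gene in ENCDCs, with 19530, 19889, 14652 and 20190 counts against 1252, 1185, 1147 and 1253 in gut cells. The groups were wide apart in spite of the lower value of ENCDC replicate 3 (log2 fold change 3.99, SE 0.12, edgeR adjusted p = 2.32e-09). *Crmp1*, a partner of semaphorin signaling, had 6439, 6873, 7747 and 8209 counts in ENCDCs and 886, 787, 648 and 819 in gut cells. It differed by 3.27 on the log2 scale (SE 0.12, edgeR adjusted p = 1.27e-08). *Dpysl5*, also called CRMP5, had 1238, 1306, 1276 and 2081 counts in ENCDCs and 110, 19, 79 and 95 in gut cells. Its groups did not overlap (log2 fold change 4.33, SE 0.40, edgeR adjusted p = 9.60e-06), and its value was 4.11 without ENCDC replicate 4.

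The other 2 CRMP genes differed less. *Dpysl2*, which encodes CRMP2, a carrier of tubulin dimers, had 2878, 2798, 2452 and 2665 counts in ENCDCs and 1013, 1096, 984 and 1144 in gut cells. *Dpysl4*, which encodes CRMP3, had 2522, 2435, 2899 and 2986 counts in ENCDCs and 862, 681, 807 and 999 in gut cells. The populations were separate in both genes, with log2 fold changes of 1.40 (SE 0.098, edgeR adjusted p = 1.06e-06) and 1.74 (SE 0.13, edgeR adjusted p = 1.90e-06).

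Ordered by level, the mean count per kb of exon, ENCDCs had *Tuba1a* first at 32774 ± 979, then *Tubb5* at 6355 ± 736, *Stmn1* at 6108 ± 605, *Tubb3* at 4805 ± 482, *Tuba1b* at 4503 ± 339.8 and *Dpysl3* at 2810 ± 397 (SD, n = 4). *Tubb5* and *Stmn1* did not differ beyond their spread, nor did *Tubb3* and *Tuba1b*. The order depends in part on the length used. Per kb of the longest transcript *Stmn1* stood above *Tubb5* in ENCDCs, at 11075 ± 1098 and 7981 ± 925, with *Tuba1a* still first. In gut cells the order was *Tuba1a* at 3672 ± 153, *Tuba1b* at 3144 ± 207, *Tubb5* at 2804 ± 180.2, *Stmn1* at 2480 ± 234, *Tubb4b* at 1594 ± 143 and *Tubb2a* at 1081 ± 76.0. Neighbours from *Tuba1b* to *Stmn1* overlapped between libraries, and per kb of the longest transcript *Stmn1* came first at 4497 ± 425, above *Tuba1a* at 3672 ± 153. *Tubb3*, at rank 4 in ENCDCs, came in at rank 20 of 36 in gut cells with 48.3 ± 5.84 counts per kb. *Stmn3* was at rank 9 in ENCDCs and rank 27 in gut cells, and *Dpysl3* at ranks 6 and 13. By the longest transcript these ranks were 5 and 21 for *Tubb3*, 10 and 30 for *Stmn3*, and 6 and 14 for *Dpysl3*.

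Long transcripts among the 36 genes were not counted alike in the ENCDC libraries. In ENCDC replicate 3, *Map1b* reached 41.2% and *Map1a* 43.4% of the mean of the other 3 ENCDC libraries, *Mapt* 55.8% and *Map6* 61.0%. *Tubb6* reached 139% there, *Tuba1c* 136% and *Tubb3* 118%. Several long genes were thus low in that library and several short ones high. Short genes were not all high, as *Tubg2* reached 72.0% and *Stmn4* 79.3%. Taking the 30 genes that averaged 100 or more counts in ENCDCs, the 7 with a longest transcript over 6000 bases all lay below the mean of the other libraries, with a median log2 ratio of -0.50. The 6 with over 4000 and up to 6000 bases had a median of -0.36. For the 5 with over 2000 and up to 4000 bases it was nearly the same, at -0.37. The 12 with up to 2000 bases had a median of 0.12, and 5 of them lay below the other libraries. Over all genes the medians of the same length classes, from longest to shortest, were -0.24 for 1674 genes, -0.12 for 2633, -0.01 for 4166 and 0.14 for 1794.

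Across the 30 genes, Spearman's correlation of transcript length with the ratio to the other ENCDC libraries was -0.64 in ENCDC replicate 3 and 0.68 in ENCDC replicate 4, against -0.25 and 0.42 over 10267 genes. In ENCDC replicates 1 and 2 it was 0.31 and -0.04 for the 30 genes, and 0.08 and -0.21 over all genes. The gut libraries varied as well, with 0.40, -0.39, -0.00087 and 0.14 in gut replicates 1 to 4 over the 24 of the genes with enough counts, and 0.14, -0.30, 0.31 and -0.11 over 10884 genes. Relations of length with library were thus not particular to ENCDC replicates 3 and 4. These are descriptions across genes of a library, which share one preparation, and the ratios within a population are not separate, since each library is in the means that the others are compared with. *Dcx*, with a longest transcript of 9074 bases, and *Dpysl5*, with 5191 bases, were the genes that stood highest in ENCDC replicate 4. The mesenchyme and smooth muscle sums of ENCDC replicate 3 were also the highest of the ENCDC libraries, and the part of either in the length pattern was not tested. The count of 26 genes called higher in ENCDCs was the same when either library was left out.

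**Figure D4:**
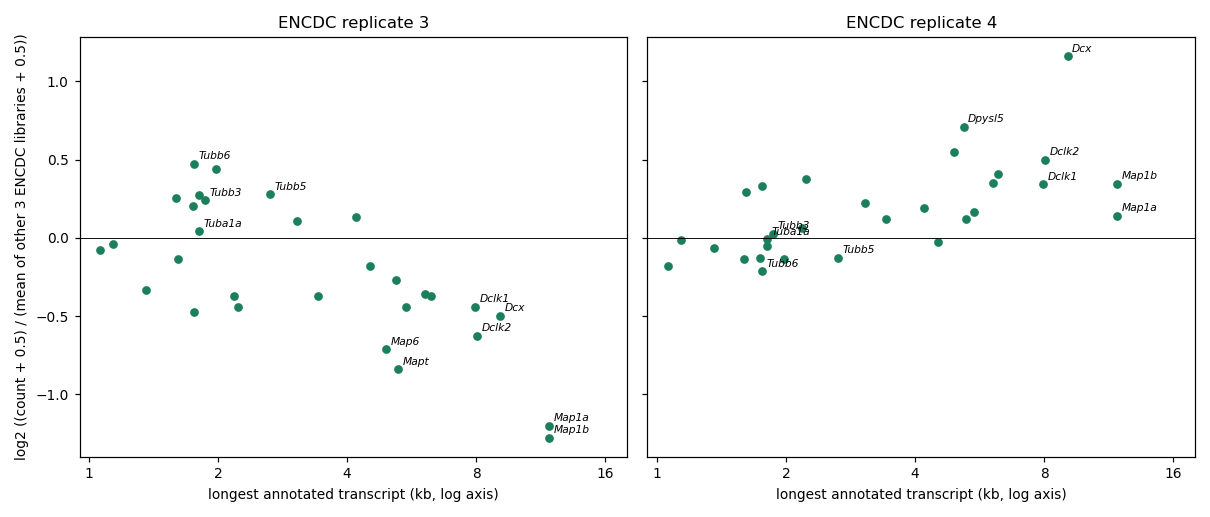
Log2 ratio of each gene's count in ENCDC replicate 3 (left) and ENCDC replicate 4 (right) to its mean in the other 3 ENCDC libraries, 0.5 added to each, against the length of the longest annotated transcript in kb on a log axis, for the 30 genes that averaged 100 or more counts in ENCDCs. In replicate 3 *Map1a* and *Map1b* lie lowest at -1.20 and -1.28, and in replicate 4 *Dcx* lies highest at 1.16.

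The 36 genes are part of a larger machinery, and 88 other microtubule genes were listed by class, of which 86 could be tested. Of these, 27 were higher in ENCDCs, 4 were lower and 55 were not called, with a median log2 fold change of 0.27. That is 31.4% higher and 4.65% lower, where all tested genes gave 17.0% and 20.9%. The median was thus nearer to that of all genes, -0.04, than to the 1.62 of the 35 genes above, and the difference between the lists was not tested. Among 8 genes of the gamma-tubulin complex, which seeds microtubules together with *Tubg1*, only *Mzt1* was called, at 0.38 (edgeR adjusted p = 0.0224). Among 6 tubulin folding cofactors, only *Tbcb* was called, at 0.77 (edgeR adjusted p = 2.85e-04). The 3 remaining tubulin genes were not called by edgeR, with unadjusted p values of 0.279 to 0.430.

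Of 17 genes of enzymes that modify tubulin, 3 were higher in ENCDCs and 3 were lower, or 17.6% each way, near the shares over all genes. *Atat1*, which acetylates alpha-tubulin, was higher at 1.12 (edgeR adjusted p = 2.55e-05), and *Vash2*, which removes the C-terminal tyrosine, was lower at -0.30 (edgeR adjusted p = 0.0397). *Vash1*, an enzyme gene of the same activity, ran the other way, with 53, 53, 29 and 37 counts in ENCDCs and 1, 3, 1 and 1 in gut cells (log2 fold change 4.78, edgeR adjusted p = 2.09e-04). Of 7 severing genes 2 were higher, the spastin gene *Spast* at 0.53 (edgeR adjusted p = 0.00513) and *Fign* at 0.94 (edgeR adjusted p = 0.0229). Among 13 genes of plus end and lattice binding proteins 6 were higher, among them the end-binding protein genes *Mapre1* at 0.57 (edgeR adjusted p = 1.02e-04) and *Mapre2* at 0.99 (edgeR adjusted p = 3.53e-05). *Nav2* was lower, with 49, 24, 200 and 56 counts in ENCDCs and 402, 345, 402 and 302 in gut cells (log2 fold change -2.10, edgeR adjusted p = 0.00795), and its highest ENCDC value was again in replicate 3.

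*Camsap2* and *Camsap3*, 2 of 3 genes of minus end binding proteins, were higher at 0.97 (edgeR adjusted p = 0.00493) and 1.62 (edgeR adjusted p = 5.82e-04). Of 19 further MAP genes 8 were higher and 11 were not called. The most counted of these 8 were *Tpx2*, a spindle assembly factor, at 0.51 (edgeR adjusted p = 0.00255) and *Map7d1* at 0.55 (edgeR adjusted p = 0.00248). Both differed by less than 2-fold, whereas 6 of the 8 were at least 2-fold higher. The largest difference was that of *Jakmip2*, at 6.09 (edgeR adjusted p = 3.29e-06). Of 10 genes of kinases that phosphorylate MAPs, and their activators, 4 were higher, led in counts by *Mark3* at 0.37 (edgeR adjusted p = 0.00512) and *Gsk3b* at 0.66 (edgeR adjusted p = 0.00401). The 2 others called, *Cdk5r1* at 2.96 (edgeR adjusted p = 1.88e-04) and the scarcely counted *Cdk5r2*, were at least 2-fold higher. In these classes 14 of the 27 higher genes (51.9%) were at least 2-fold higher, near the 48.5% of all higher genes, and 22 of the 26 higher genes among tubulins, MAPs, doublecortins, stathmins and CRMPs (84.6%) were.

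**Figure D5:**
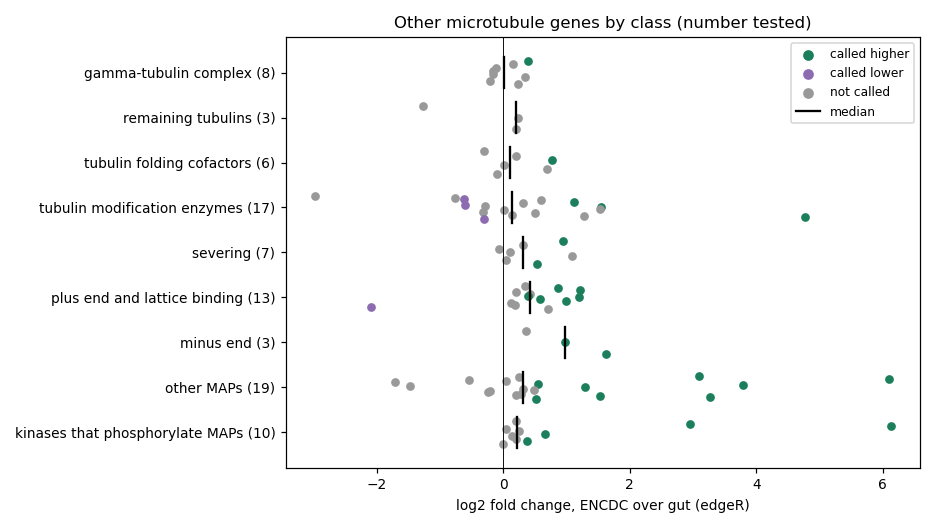
Log2 fold change, ENCDC over gut, of 86 other microtubule genes by class, with a point per gene colored by call at an adjusted p under 0.05 and a bar at the class median. Class medians run from 0.01 for the gamma-tubulin complex to 0.97 for minus end proteins. The point at 6.13 among the kinases is *Cdk5r2*, whose gut counts were all 0, so the fitted value is not a measured size. With 3 counts over the group as the floor, and its ENCDC counts taken as exact, it was at least 11.3-fold higher in ENCDCs.

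Promoter sequence was looked at because so many of the genes were higher together. RefSeq promoter windows of 300 bases (GRCm38.p6, 250 before to 50 after the start) were matched by symbol for 25 of the 36 genes, in 29 windows. Motifs were searched on both strands, and none of them contains another. The E-box CAGATG, a core that proneural factors are known to bind, was in 3 windows (10.3%), against 17.2% of all 32851 windows, and the E-box CAGCTG in 4 (13.8%), against 16.3%. The Sox core AACAAT was in 3 (10.3%), against 10.7%. The stretch TTCAGCACC, part of the element bound by the neuronal gene repressor REST, was in none of the 29 windows and in 0.371% of all, too rare for 29 windows to show a difference. In the 19 windows of the 16 genes called higher, CAGATG was in 2 (10.5%), CAGCTG in 1 (5.26%) and AACAAT in 3 (15.8%), the last above its share of all windows by counts too small to read. The windows of *Stmn3*, the gene with the largest difference, at chr2:181314451-181314750 on the minus strand, and of *Map1b*, at chr13:99516553-99516852 on the minus strand, are shown because they are the 2 genes called higher whose windows hold CAGATG, which is in capitals.
Stmn3: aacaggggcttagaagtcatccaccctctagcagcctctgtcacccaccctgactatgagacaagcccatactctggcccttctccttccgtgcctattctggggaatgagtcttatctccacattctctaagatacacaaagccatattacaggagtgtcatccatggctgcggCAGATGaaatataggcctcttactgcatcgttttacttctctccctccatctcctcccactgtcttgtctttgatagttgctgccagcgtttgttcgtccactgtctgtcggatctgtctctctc
Map1b: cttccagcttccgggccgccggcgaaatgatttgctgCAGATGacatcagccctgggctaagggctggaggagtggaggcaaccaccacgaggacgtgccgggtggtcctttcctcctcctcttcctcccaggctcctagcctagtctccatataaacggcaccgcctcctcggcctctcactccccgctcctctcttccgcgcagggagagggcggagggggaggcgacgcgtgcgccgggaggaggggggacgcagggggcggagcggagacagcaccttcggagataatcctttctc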

How the data were processed

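mRNA-seq counts of 4 ENCDC and 4 gut libraries, grouped by GEO's labels, were analysed. The authors made cDNA with the SMARTer PCR kit and libraries with NexteraXT, which do not mark strand, aligned reads with STAR 2.4.2a (mm10) and normalized with PORT. They deposited minimum normalized read counts, whole reads per gene at one depth, so precision is limited by the number of libraries and, in scarce genes, by counting. The design text speaks of small RNA and CPM, but the values are whole numbers that sum to at least 13250893, and were read as counts of mRNA. The study chose minimum counts for mRNA and maximum counts for small RNA, the latter because miRNA host genes are often duplicated, so the choice bears on reads that fit several genes. The exact rule for such reads is not given in the sources used here.

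Counts were tested with edgeR 4.0.16 in R 4.3.3 (TMM factors, quasi-likelihood F test, Benjamini-Hochberg adjustment over 18866 genes, adjusted p under 0.05) on genes that, in one population or both, averaged 3 or more counts and were counted in 3 or more libraries. The script was tested on simulated data. limma 3.58.1 (voom, the study's own test), DESeq2 1.42.0, other factors and filters, edgeR's glmTreat at 2-fold, the replicate number as a block and leaving out each library were alternatives. Figures were drawn with matplotlib 3.10.9. Of 29092 gene IDs, 29035 matched GENCODE M21, which gave exon lengths, overlaps and coding sequences. Coding sequences were aligned with Biopython 1.88, and windows of 50 bases were compared between all M21 transcripts. Sequences from RefSeq came from GRCm38.p6. All members are reported, and from each class of other microtubule genes up to 2 called genes with the most counts and up to 2 called against most of the class. Genes named as examples outside that rule were chosen after their values were seen. Members and lists were chosen with earlier results of these data known. Nothing in the sources says that replicates came from separate litters, so p values measure the spread between these libraries. Small RNA data were not analysed here, and some sequences are not reported here.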

Additional observations from a re-analysis of the deposited data

Results flagged for a closer look

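In 8 of 70 groups of 4 libraries, the highest or lowest count was set far from the other 3 by Dixon's criterion, which flags about 1 in 20 groups by chance. ENCDC replicate 3 held 3 of these values, the lowest *Dpysl3* count of 14652, the highest *Tuba1c* count of 968 and the highest *Tubb6* count of 2364. ENCDC replicate 4 held the highest *Dcx* count of 1089 and the highest *Dpysl5* count of 2081. ENCDC replicate 2 held the only *Tubb1* count above 0 among ENCDCs, 17. In gut cells, replicate 1 held the highest *Tuba8* count of 63 and replicate 4 the lowest *Tubg2* count of 80.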

How the results depend on the processing

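Genes of the 36 called higher in ENCDCs numbered 26 under every alternative and with every library left out, except 21 when tested against a 2-fold change. Genes called lower, 3 in the main test, numbered 1 when tested against a 2-fold change, 4 with voom and limma, 2 with DESeq2 and 1 to 3 when a library was left out. Against a 2-fold change, all genes called fell to 983 higher and 2031 lower, and the other microtubule genes to 8 higher and 0 lower (edgeR, 1 lower at an unadjusted p under 0.05). Voom and limma called 7 of the latter lower. Of 556 recomputed fold changes none changed direction, 20 lost and 4 gained a call. *Tuba3a* lost its call in 9 alternatives (adjusted p 0.0558 to 0.191) and *Tubb6* in 6. In further alternatives *Tuba3a* had too few counts to be tested, namely with a mean count of at least 10 and without gut replicate 1, 2 or 3. *Tuba8* and *Tubb1* were called lower with voom and limma (adjusted p = 0.0200 and 0.0150) and without ENCDC replicate 2 (adjusted p = 0.0257 and 0.00438). Both had enough counts to be tested only in gut cells. ENCDC replicate 2 held their highest ENCDC counts, 13 and 17, so the calls without it add no support for a difference. *Map1a*, *Tuba1b*, *Tubb2a*, *Tubb4b* and *Tubg1* lost theirs only against a 2-fold change. For *Tuba1b*, *Tubb2a*, *Tubb4b* and *Tubg1*, which differed by less than 2-fold, that follows from the test's construction. *Map1a* had a log2 fold change of 1.44, above 2-fold, but missed the threshold (glmTreat adjusted p = 0.0950). For the others the cause was not tested. Of 180 recomputed isotype shares, 30 moved by more than the SD. Same-numbered libraries did not deviate together (r from -0.013 to 0.032). That cannot settle whether they came from the same bowels, which the sources do not say. A replicate block gave 26 higher and 2 lower, 2609 and 3324 among all genes, and 23 and 3 among other microtubule genes. Depth limits *Tuba3a*, *Tuba3b*, *Tuba8* and *Tubb1*, whose libraries held at most 63 counts.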
